A study of Mus musculus with 48 samples.

Results

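The spinal cord of Tia1 KO mice at 3 months of age was compared with the spinal cord of WT mice of the same age. The samples were chosen by their labels alone, and the 6 arrays (3 KO, 3 WT) are part of a series of 48 arrays that covers spinal cord, cerebellum, midbrain and liver at 3 and 6 months. The KO mice, numbered 122970, 122972 and 122973, carry a homologous recombination in Tia1 that leaves a shortened mRNA and no full-length protein in any tissue, and they had been bred into the C57BL6/J background. The WT mice, numbered 1 to 3, were untreated, and the methods state that they were C57BL6/J animals purchased from The Jackson Laboratory. The series text calls them littermates. With purchased controls, the knocked-out gene, its linked chromosome segment, the colony and the substrain of the controls cannot be told apart. The labels use the same animal numbers in all 4 tissues and at both ages, and nothing states that numbers at the 2 ages are the same animal. Values are log2 expression levels of probe sets, groups of short oligonucleotides that each read a stretch of 1 transcript. A difference of 1 on this scale is a 2-fold change, and p-values rest on a spread pooled over all 48 arrays, all 4 tissues included.

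TIA-1 is an RNA-binding protein that recognises uridine-rich and adenine/uridine-rich stretches in mRNAs. In the nucleus it takes part in splice site choice, and in stressed cells it moves to the cytoplasm, where it seeds stress granules in which untranslated mRNAs are held. The spinal cord is rich in long-axon neurons, among them the lower motor neurons, and in the oligodendrocytes that wrap axons with myelin.

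The labelled tissue was borne out by its markers. Over the 12 measured pan-neuronal genes, the summed level lay between 14.26 and 14.35 (log2) on all 6 arrays, and over 22 myelin genes between 14.87 and 14.98. The trunk Hox genes, which are transcribed in spinal cord along the body axis, reached 8.64 and 9.03 in the WT and KO means for Hoxc8. Array-to-array correlations ran from 0.9922 to 0.9967, and the median SD within the groups was 0.11. Signals of neighbouring tissue differed between arrays. The summed level of 18 skeletal muscle genes was 8.55, 8.06 and 14.16 in WT 1 to 3 and 10.0, 10.9 and 12.4 in KO 122970, 122972 and 122973. WT 3 was thus far above the other WT arrays, and the KO arrays lay between. The 11 adipocyte genes had summed levels of 9.36, 9.43 and 11.70 in KO and 9.20, 9.23 and 10.78 in WT, in the same order of animals, with a median difference of 0.46 and 10 positive, none of which passed the test. KO 122973 and WT 3 were highest in their groups in both lists. Sensory neuron markers were highest in WT 2, at 10.58 against 8.24 to 9.80 on the other arrays.

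Hox genes were compared by their position along the body axis. Those with paralogue numbers 3 to 5 are used from the neck downwards, and those with numbers 8 to 10 in the thoracic and lumbar cord. All 6 measured genes of numbers 3 to 5 were lower in KO (median log2 difference −0.39, from −0.51 for Hoxc5 to −0.02 for Hoxd3), while 9 of 10 genes of numbers 8 to 10 were higher (median 0.26, up to 0.43 for Hoxc10). Their mean levels were 6.28, 6.35 and 6.38 in KO against 6.76, 6.54 and 6.76 in WT for the first class, and 7.35, 7.40 and 7.32 against 6.99, 7.24 and 7.12 for the last. The 2 groups did not overlap in either class. None of the 19 Hox genes passed the test across the array, the split by number was made after the values were seen, and its part in the results below was not tested. At 6 months the medians were −0.11 and 0.11.

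Of the Tia1 probe sets, 4 passed the test, in opposite directions. Probe set 1431708_PM_a_at, which reads the recombined exon, gave 5.14, 5.39 and 5.52 in KO and 7.69, 7.49 and 7.65 in WT, a −4.78-fold difference (log2 −2.26, SE 0.13, adjusted p = 1.926e-15). The 3 KO arrays lay far below all WT arrays, as labelled. Probe sets 1416812_PM_at, 1416813_PM_at and 1416814_PM_at read exons further downstream and were higher in KO by 1.51-fold, 1.64-fold and 1.45-fold. The call of the last was lost when any of the 6 arrays was left out (adjusted p between 0.0701 and 0.3096). Probe sets 1437934_PM_at and 1453803_PM_at differed by 0.37 and 0.53 without passing the test. Tial1 encodes the closest relative of TIA-1, and its 4 probe sets differed by −0.07 to 0.08, with an adjusted p of 1 for each.

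Across 45037 probe sets, limma called 140 (0.311%) at an adjusted p under 0.05. Of these, 98 (0.218%) were higher and 42 (0.0933%) lower in KO. They named 62 genes with a higher and 26 with a lower probe set, with Tia1 among both, while 30 higher and 13 lower probe sets have no single gene symbol here and are only counted. In 139 of the 140, the KO and WT arrays did not overlap. By the brightest probe set of each of 17097 genes, 1318 had all KO arrays above all WT arrays and 1786 all KO arrays below. The calls rest on the same arrays, so the count of 139 is no further support for them. For 55 of the 140, the SE from the 6 spinal cord arrays alone was above the SE of the pooled fit. At least a 2-fold difference was reached by 31 higher and 13 lower probe sets. At an unadjusted p under 0.05 there were 2347 probe sets. The median difference over all probe sets was −0.01, a value that the normalization of the arrays to 1 common distribution sets close to 0.

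**Figure D1:**
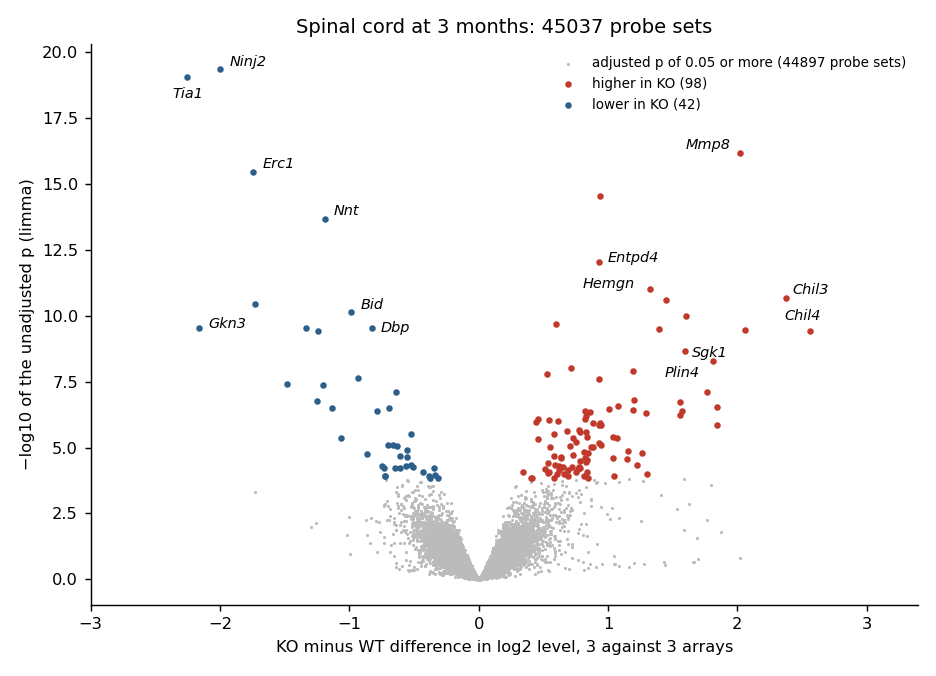
Each point is 1 of 45037 probe sets, with the KO minus WT difference in log2 level (3 against 3 arrays) on the x axis and −log10 of the unadjusted limma p on the y axis. Red points (98) were higher and blue points (42) lower in KO at an adjusted p under 0.05. Tia1, Ninj2, Erc1 and Gkn3 stand at the lower end, and Chil4, Chil3 and Mmp8 at the upper end.

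Of the genes listed as targets of the glucocorticoid receptor, 9 of 26 passed the test, each higher in KO spinal cord. This nuclear receptor is activated by corticosterone and switches on a set of genes that is shared by many cell types. Of 26 measured genes on the list, which holds the receptor genes Nr3c1 and Nr3c2 besides targets, 9 rose, 0 fell and 20 had all KO arrays above all WT arrays. Their median log2 difference was 0.67, beside −0.01 over all 17097 genes. Of all genes, 59 were higher and 19 lower by the same measure, the brightest probe set of a gene, and 1318 had all KO arrays above all WT arrays. Plin4, Angptl4, Cdkn1a and Pnpla2 on the list were also chosen by the study on these same arrays. The list was drawn up with earlier results of these data known, so these values are a description only.

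Sgk1, a serum and glucocorticoid regulated kinase that acts on ion channels and transporters, had levels of 10.731, 10.999 and 11.077 in KO and 9.14, 9.08 and 9.80 in WT. It was 3.02-fold higher (log2 1.60, SE 0.20, adjusted p = 4.524e-06), and the lowest KO array lay well above the highest WT array. Plin4, a perilipin that coats lipid droplets, had levels of 7.06, 7.15 and 7.13 in KO and 5.40, 5.21 and 5.30 in WT, which makes 3.51-fold (adjusted p = 9.785e-06). Its SD was 0.05 in KO and 0.09 in WT, so that 2 tight groups stood apart. Angptl4, a secreted inhibitor of lipoprotein lipase, had levels of 5.91, 5.62 and 6.18 against 4.53, 4.90 and 4.67 and was 2.30-fold higher (adjusted p = 0.0002171). Nfkbia encodes the inhibitor that holds NF-kappaB in the cytoplasm. Its levels were 8.89, 9.08 and 9.03 in KO and 7.90, 7.94 and 8.36 in WT, 1.91-fold higher (adjusted p = 0.001069). The arrestin-domain gene Arrdc2 was 2.34-fold higher, the sulfotransferase gene Sult1a1 1.72-fold and the transcription factor gene Klf15 1.47-fold. Errfi1, an inhibitor of epidermal growth factor receptor signalling, was 1.38-fold higher. The leucine zipper gene Tsc22d3 (Gilz) was 1.45-fold higher with probe set 1420772_PM_a_at.

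Other members differed without passing the test. Lcn2, an iron-siderophore binding protein that is also made by granulocyte precursors, differed most, by 1.88 (SE 0.75, adjusted p = 0.6928), with KO levels of 7.59, 6.89 and 8.19 and WT levels of 4.96, 5.75 and 6.33. The cell cycle inhibitor gene Cdkn1a differed by 0.87, Ddit4 by 0.83, Ccn2 by 0.81 and Fkbp5, a chaperone of the receptor itself, by 0.61. Nr3c1, which encodes the receptor, had a difference of −0.16, and Nr3c2, the mineralocorticoid receptor gene, 0.01. The calls of Sgk1, Plin4, Angptl4, Nfkbia, Sult1a1 and Errfi1 were kept when any 1 of the 6 arrays was left out. Klf15 was lost without KO 122973 or WT 1 (adjusted p up to 0.1324). Arrdc2 was lost without any array other than WT 3 (up to 0.1615). Tsc22d3 was lost with probe set 1420772_PM_a_at without KO 122972, KO 122973, WT 1 or WT 2 (up to 0.1881). Its other called probe set, 1425281_PM_a_at, was lost without KO 122972 or WT 1 (up to 0.1061). Without both WT 3 and KO 122973, the arrays of most muscle signal in their groups, Sult1a1 was also lost (adjusted p = 0.2594). When the 6 arrays were fitted alone, Sgk1, Plin4, Angptl4, Arrdc2 and Nfkbia passed, while Errfi1 (0.1046), Sult1a1 (0.1226) and Klf15 (0.1693) did not. In that fit Tsc22d3 passed with 1425281_PM_a_at (0.03378) and not with 1420772_PM_a_at (0.06535).

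**Figure D2:**
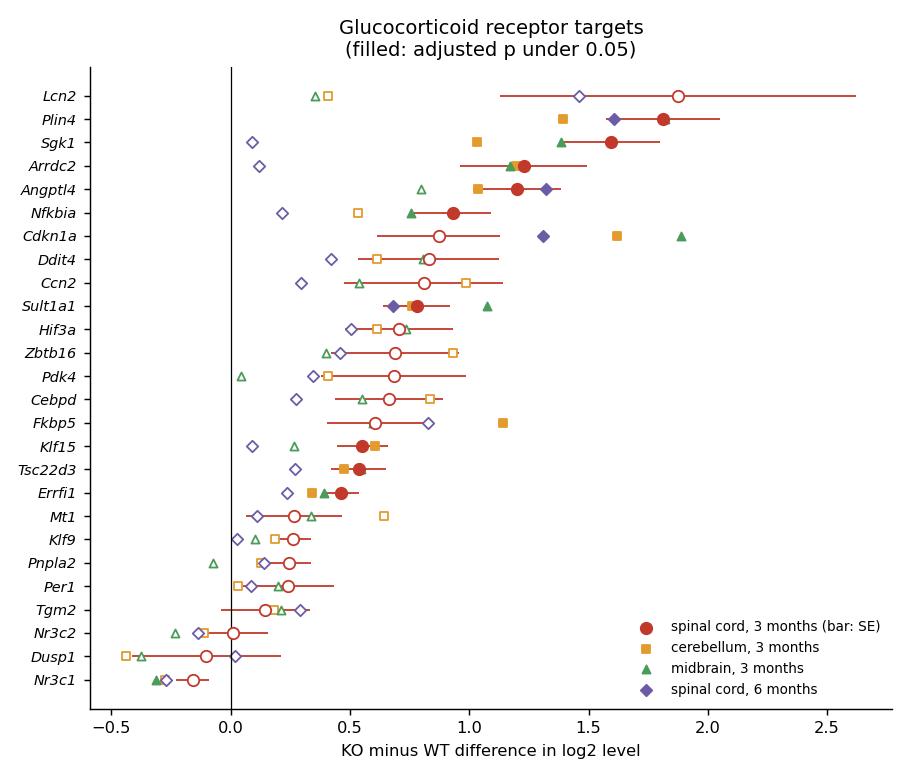
The 26 measured glucocorticoid receptor targets are ordered by the KO minus WT difference in log2 level in spinal cord at 3 months (red circles, with SE bars), with cerebellum and midbrain at 3 months and spinal cord at 6 months beside them. Filled symbols have an adjusted p under 0.05, and 24 of 26 red circles lie above 0. Sgk1 stands at 1.60 at 3 months and 0.09 at 6 months in spinal cord.

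The receptor binds DNA as a dimer, at a pair of short inverted repeats with a spacer between them. The letters GNACANNNTGTNC, which read the same on both strands, were searched in the 250 bases before the transcription starts of RefSeq (GRCm38.p6). They occur in 119 of 27025 genes with such a window (0.44%), in 2 of 47 genes called higher and in 0 of 20 called lower. Of the 20 list members with a window, Sgk1 and Mt1 hold a match, and Txnip is the other called gene. The stretches around these matches are shown because Sgk1 and Txnip were called and Mt1 was not. Capitals mark the match, and all are read on the plus strand.

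Sgk1, chr10:21993657-21993759: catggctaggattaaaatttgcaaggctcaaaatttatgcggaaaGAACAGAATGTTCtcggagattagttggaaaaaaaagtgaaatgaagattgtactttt
Txnip, chr3:96557740-96557842: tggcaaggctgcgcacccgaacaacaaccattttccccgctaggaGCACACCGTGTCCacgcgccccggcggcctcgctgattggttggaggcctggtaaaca
Mt1, chr8:94178950-94179052: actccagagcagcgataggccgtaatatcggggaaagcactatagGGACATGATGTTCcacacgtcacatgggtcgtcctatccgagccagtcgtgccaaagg

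The Sgk1 match lies 188 to 176 bases before a start, that of Txnip 172 to 160 and that of Mt1 94 to 82. A match is only a run of letters and no proof of binding. Txnip, an inhibitor of thioredoxin and of glucose uptake, was higher with both of its called probe sets, by 1.80-fold (1415997_PM_at) and 1.52-fold (1415996_PM_at). Its levels with the former were 5.82, 5.60 and 5.71 in KO and 4.72, 4.97 and 4.92 in WT. The call was lost without KO 122970 or WT 1 (adjusted p up to 0.09847), and that of the latter without any array other than KO 122972 (up to 0.4517). Mt1, a metal-binding metallothionein, had a difference of 0.26 and did not pass.

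Several called genes outside this list take part in hormone and lipid metabolism, a grouping made after their values were seen. Hsd11b1, which encodes the enzyme that regenerates active glucocorticoid inside cells, had levels of 8.85, 8.90 and 8.85 in KO and 8.34, 8.38 and 8.28 in WT, 1.45-fold higher (adjusted p = 2.873e-05). Dio2, the deiodinase that turns thyroxine into the active thyroid hormone, had levels of 7.51, 7.81 and 7.59 against 6.81, 6.81 and 6.82, 1.77-fold higher (adjusted p = 0.000423). In both genes the KO arrays stood clear of WT, and both calls were kept when any 1 array was left out. The ceramidase gene Acer2 was 1.91-fold, the phospholipase gene Pla2g3 2.05-fold and the adiponectin receptor gene Adipor2 1.53-fold higher. The call of Pla2g3 was lost without any array other than KO 122970 (adjusted p up to 0.07727), while Acer2 and Adipor2 were kept. Of 25 lipid droplet and lipolysis genes, only Plin4 and Angptl4 rose and 0 fell, with a median of 0.02. Of 27 PPAR target and fatty acid oxidation genes, these same 2 rose, with a median of 0.03. Of 10 measured thyroid hormone pathway genes, only Dio2 rose. The 19 cholesterol synthesis and uptake genes had a median of −0.15 and 17 were lower in KO, but none passed the test, with Hmgcs1, the enzyme gene before the rate-limiting step, at −0.45.

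Genes of granulocyte precursors were among those with the highest differences. These marrow cells make the granule proteins of neutrophils in a fixed order, from myeloperoxidase early to gelatinase late. Of 15 measured genes on the list, which shares Lcn2 with the glucocorticoid receptor list, 5 rose, 0 fell, and all 15 differences were positive, with a median of 1.62. A further 7 had an unadjusted p under 0.05. Over all 17097 genes, 975 had an unadjusted p under 0.05 and 7921 differences were positive. Mmp8, the neutrophil collagenase, had levels of 5.09, 5.03 and 5.27 in KO and 3.10, 3.02 and 3.21 in WT, 4.05-fold higher (log2 2.02, adjusted p = 9.602e-13). Both groups were tight, and the gap between them was many times the SD of 0.12 and 0.09. The WT levels lay below the medians of their arrays (4.306, 4.301 and 4.296), and whether weak signal narrowed the spread was not tested. Chil3 encodes a chitinase-like protein of immature neutrophils and macrophages. Its levels were 7.53, 7.37 and 8.24 in KO and 5.19, 4.56 and 6.27 in WT, 5.18-fold higher (adjusted p = 1.053e-07). The related Chil4, which is outside the list, had levels of 6.72, 6.46 and 7.26 against 4.28, 3.27 and 5.22, 5.89-fold higher (adjusted p = 8.14e-07). The 2 genes are near-identical copies, so that probe sets may not keep them apart.

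The granule protein genes Camp (cathelicidin), Ngp and Ltf (lactotransferrin) followed the same order of arrays. Camp had levels of 8.03, 7.48 and 8.58 in KO against 6.14, 5.38 and 7.05 in WT and was 3.59-fold higher. Ngp was 3.58-fold and Ltf 3.41-fold higher. In each of the 3 genes KO 122973 was highest and KO 122972 lowest among KO, and WT 3 was highest and WT 2 lowest among WT. KO 122973 and WT 3 were also highest in the muscle and adipocyte lists. S100a9 and S100a8, calcium-binding proteins of mature and immature neutrophils, differed by 1.80 and 1.62 without passing the test (adjusted p = 0.07495 and 0.2276). Mpo and Elane, which mark the earliest stages, differed by 1.16 and 0.25, and Fcnb and Ms4a3 by 0.05 and 0.07. The summed level of the list was 11.93, 11.49 and 12.30 in KO and 10.07, 9.54 and 10.97 in WT. At 6 months it was 10.21, 9.87 and 9.61 in KO and 10.28, 8.99 and 9.60 in WT, and in the cerebellum and midbrain it lay between 6.89 and 7.64 on all arrays at both ages. The KO cord at 3 months thus stood above all other nervous tissue arrays. In bulk tissue, more cells of a type and more RNA per cell cannot be told apart.

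Other called genes are also known from marrow or blood cells. Slc4a1, the anion exchanger of red cells, had levels of 6.40, 5.59 and 6.67 in KO and 4.52, 4.32 and 5.10 in WT, 2.98-fold higher (adjusted p = 0.0004365). Hemgn (hemogen), a nuclear protein of blood progenitors, was 2.50-fold higher with levels of 3.69, 3.67 and 4.34 against 2.54, 2.48 and 2.72. Mki67, which marks dividing cells, had levels of 4.88, 4.80 and 5.59 against 3.42, 3.32 and 3.86 and was 2.94-fold higher. The 3 genes separated the groups on every array, with the WT levels of Hemgn and Mki67 below the medians of their arrays. Ctse (cathepsin E) was 2.93-fold, Wfdc21 2.63-fold, Ada (adenosine deaminase) 2.40-fold, Cybb, the oxidase subunit of phagocytes, 2.22-fold, Cd177, a neutrophil surface protein, 1.92-fold, the chemokine gene Ccl6 1.73-fold, Prg2, the eosinophil major basic protein, 1.56-fold and Kel, the Kell blood group protein, 1.46-fold higher. These genes were grouped after their values were seen.

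Not all blood markers moved with them. The blood and erythroid list, led by the haemoglobin genes, had a summed level of 14.23 to 14.30 in KO and 14.27 to 14.34 in WT, and only Slc4a1 of its 7 measured genes rose, while Hba-a1, Hbb-b2 and Alas2 had differences of −0.04, −0.05 and −0.34. The 8 B lineage genes had a median of 0.10, the 10 cartilage and bone genes 0.01 and the 14 microglia genes −0.05, with 0 called in each. Of 32 genes of the S and G2/M phases, 30 were higher in KO, with a median of 0.15, and only Mki67 passed the test. The skeletal muscle list had 0 of 18 genes called and a median of 1.07, which was 3.01 without WT 3 and −0.18 without WT 2. The part of tissue next to the cord in these differences was not tested. Leaving out WT 3 and KO 122973 does not test it either. The muscle sums that remain are 10.0 and 10.9 in KO against 8.55 and 8.06 in WT. Mmp8 was 4.05-fold higher on all arrays and had a log2 difference of 1.998 without WT 3 and KO 122973, against 2.02 with them. For Chil3 it was 2.58 without them and 2.37 with them. In the same setting Cybb fell short of the test with 0.79 (adjusted p = 0.5217), Ada with 0.93 (0.5083), Ccl6 with 0.64 (0.5492) and Kel with 0.50 (0.4192).

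Chil3, Chil4, Mmp8, Ngp, Ltf, Slc4a1, Hemgn, Mki67, Ctse, Wfdc21 and Cd177 stayed called when any 1 array was left out, whereas Camp was lost without WT 2 (adjusted p = 0.05079), Ada without KO 122972, KO 122973 or WT 3 (up to 0.1366), Cybb without KO 122973, WT 2 or WT 3 (up to 0.2533), Prg2 without KO 122972, WT 1 or WT 2 (up to 0.1922), Kel without KO 122970, KO 122973, WT 2 or WT 3 (up to 0.431) and Ccl6 without any array other than KO 122972 (up to 0.2485). When the 12 spinal cord arrays were fitted alone, the adjusted p was 0.02365 for Chil3, 0.03426 for Chil4 and 2.605e-06 for Mmp8, while Camp (0.1159), Ngp (0.07719), Ltf (0.08929) and Cd177 (0.1243) no longer passed. When the 6 arrays were fitted alone, Mmp8 (0.000215), Hemgn (0.04159) and Ctse (0.04125) passed, whereas Chil3 and Chil4 (0.1083 each), Camp (0.1961), Ngp (0.1687), Ltf (0.1926), Slc4a1 (0.1258), Wfdc21 (0.1046), Mki67 (0.05534) and Cd177 (0.2833) did not. The SE from the 6 arrays alone was 0.61 for Chil4 and 0.58 for Camp, against 0.30 and 0.32 in the pooled fit.

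**Figure D3:**
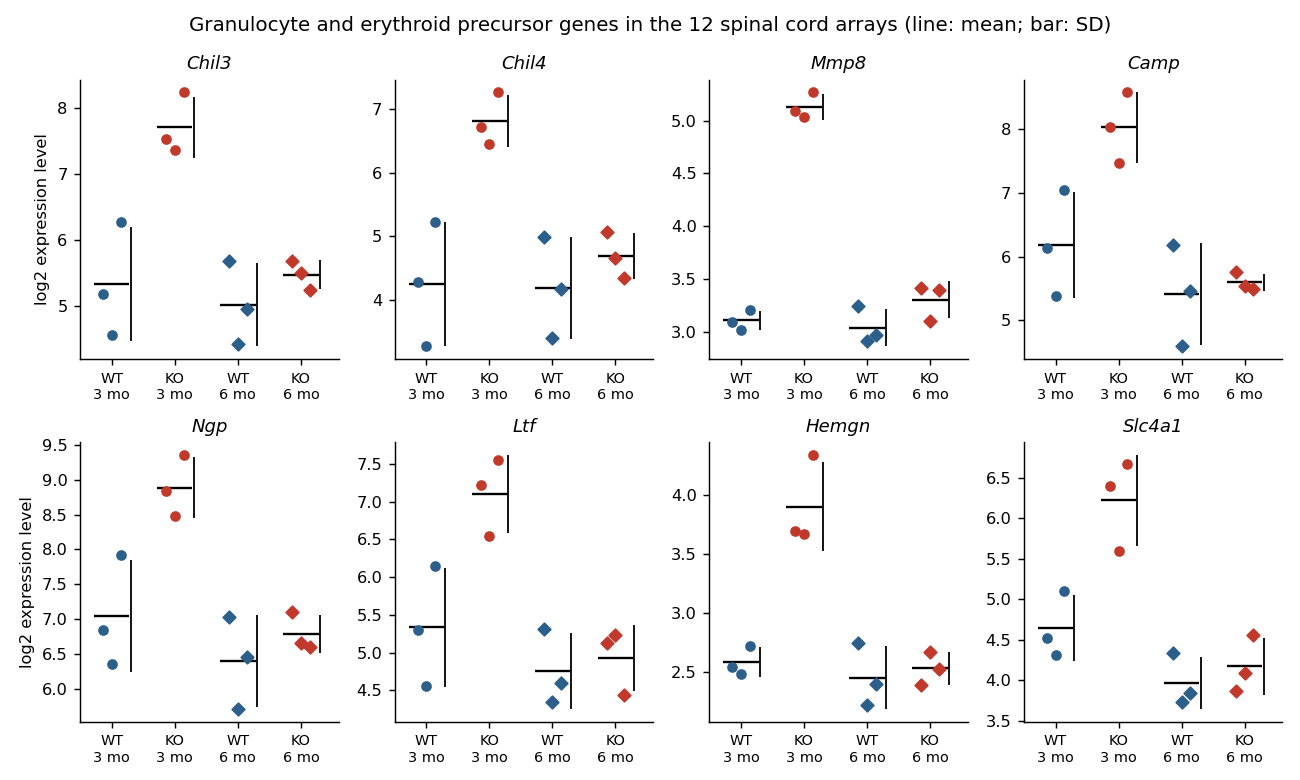
Levels (log2) of 8 granulocyte and erythroid precursor genes are plotted in the 12 spinal cord arrays, by genotype (WT blue, KO red) and age (circles 3 months, diamonds 6 months), with the mean as a line and the SD as a bar beside it. In every panel the 3 KO arrays at 3 months lie above all other arrays, and Mmp8 has the tightest groups.

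The difference of the KO effect between tissues and ages was tested itself. Against the cerebellum at 3 months, 20 probe sets differed (0.0444%), against the midbrain 7 (0.0155%), and against the spinal cord at 6 months 24 (0.0533%). Chil3, Chil4, Mmp8, Wfdc21 and Hemgn differed in all 3 tests. For Mmp8, the KO minus WT difference was 2.02 here, −0.15 in cerebellum, 0.14 in midbrain and 0.27 in spinal cord at 6 months, and the adjusted p of the tests was 4.07e-09, 6.197e-07 and 3.771e-06. Camp, Ngp and Ltf did not pass any of these tests of a difference, with values of 0.18, 0.38 and 0.18 at 6 months. Of the glucocorticoid receptor targets, only Sgk1 differed, and only against 6 months, where its KO minus WT difference was 0.09 (log2 difference of the effects 1.51, adjusted p = 0.01694). The list had medians of 0.61 in cerebellum, with 10 genes higher, 0.47 in midbrain, with 8 higher and Nr3c1 lower, and 0.27 at 6 months, with 4 higher. The summed level of the list also differed between the ages in WT. In spinal cord it was 13.56 to 13.68 in WT and 14.03 to 14.17 in KO at 3 months, and 13.88 to 13.92 in WT and 13.97 to 14.21 in KO at 6 months. The WT arrays of 3 months lay below those of 6 months without overlap in spinal cord, cerebellum, midbrain and liver alike, and the part of this step in the KO minus WT differences was not tested. Arrays are not shared between these comparisons, but by the labels the 3 tissues of an age come from the same numbered animals.

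Of the 140 probe sets called here, 49 were also called in the same direction in cerebellum at 3 months (35% of these and 19.8% of the 247 there), 51 in midbrain (36.4%, and 46.8% of 109) and 30 in spinal cord at 6 months (21.4%, and 41.1% of 73). The 1 probe set called in opposite directions in cerebellum and cord has no symbol here. Slc7a3, an arginine transporter, and Chac1, a glutathione-degrading enzyme induced by amino acid stress, were higher in KO cerebellum by 2.51 and 1.60 (log2) and had differences of −0.02 and 0.04 in cord. Both differed between the tissues (adjusted p = 7.167e-10 and 0.001903).

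A share of the called genes lies on chromosome 6, the chromosome of Tia1. Of 86 called genes with a known chromosome, 15 (17.4%) are on chromosome 6, which holds 5.56% of such genes on the array. This is 1.59% of its array genes, and no other chromosome exceeded 0.685%. Ninj2, an adhesion protein induced in injured nerve, had levels of 3.94, 4.06 and 3.92 in KO and 5.96, 5.96 and 5.99 in WT, −3.998-fold (log2 −1.999, SE 0.11, adjusted p = 1.926e-15). Gkn3 (gastrokine 3), the neighbour 18 array genes away from Tia1, had 3.53, 3.07 and 3.54 against 5.37, 5.44 and 5.81, −4.48-fold with probe set 1429286_PM_at. Erc1, a scaffold of the active zone that releases synaptic vesicles, had 3.15, 2.89 and 3.26 against 4.91, 4.67 and 4.95, −3.35-fold with probe set 1441493_PM_at. The brightest probe set of Erc1 is another and did not pass the test. Bid, a BCL2 family protein that carries death receptor signals to mitochondria, had 4.96, 4.93 and 5.21 against 6.12, 6.09 and 5.84, −1.98-fold. In these 4 genes the groups were far apart, and every call was kept when any 1 array was left out and when the 12 spinal cord arrays were fitted alone. The KO levels of Ninj2, Gkn3 and Erc1 lay below the medians of their arrays (4.272, 4.266 and 4.287). Whether weak signal limited these differences was not tested.

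By distance on either side, 3 of 51 genes were called at 0 to 25 array genes from Tia1, with Tia1 counted, and 1 of 150 at 26 to 100. At 101 to 250 array genes 9 of 300 were called, at 251 to 400 2 of 300 and from 401 on 0 of 140. Along the chromosome, 8 of the 15 called genes lie between Efcab12 and Bid, 173 to 221 array genes from Tia1, a stretch set after the values were seen. Beside Erc1, Ninj2 and Bid these are Efcab12 (−1.58-fold), Zfp9 (−1.55-fold), the kinase gene Wnk1 (−1.27-fold), Dcp1b, which encodes an activator of mRNA decapping (1.93-fold higher), and Adipor2 (1.53-fold higher). Dcp1b had levels of 4.76, 4.95 and 4.49 in KO and 3.86, 3.71 and 3.79 in WT, with no overlap. Pcyox1 (−1.27-fold) is next to Tia1, and Klf15 lies 66 array genes away. On the other side, Nfe2l3 (−1.66-fold), Kel and Mkrn1 (−1.56-fold) lie 213 to 307 array genes away. In spinal cord at 6 months, Nfe2l3 and Mkrn1 had log2 differences of 0.09 and −0.03 and were not called. Ninj2, Erc1 and Bid were called lower at that age too. Lower genes made up 11 of the 15 on chromosome 6, with Tia1 counted there, and 15 of 71 elsewhere. The calls of Nfe2l3 and Wnk1 were lost without any 1 array (adjusted p up to 0.341 and 0.2853), of Pcyox1 without any array other than WT 3 (up to 0.3094), of Efcab12 without KO 122970 or WT 3 (up to 0.08669) and of Zfp9 without WT 2 (0.06139). Without both WT 3 and KO 122973, Adipor2 was lost as well (0.07928). With probe set 1441493_PM_at, Erc1 was lowered more in the cerebellum (log2 −4.47) than in the cord (−1.74). Ninj2 was lowered more in the cord (−1.999) than in the cerebellum (−1.07). The adjusted p of these limma differences was 6.567e-13 and 0.002547. In both genes the KO levels in cord lay below the array medians, and the part of weak signal in these differences was not tested.

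**Figure D4:**
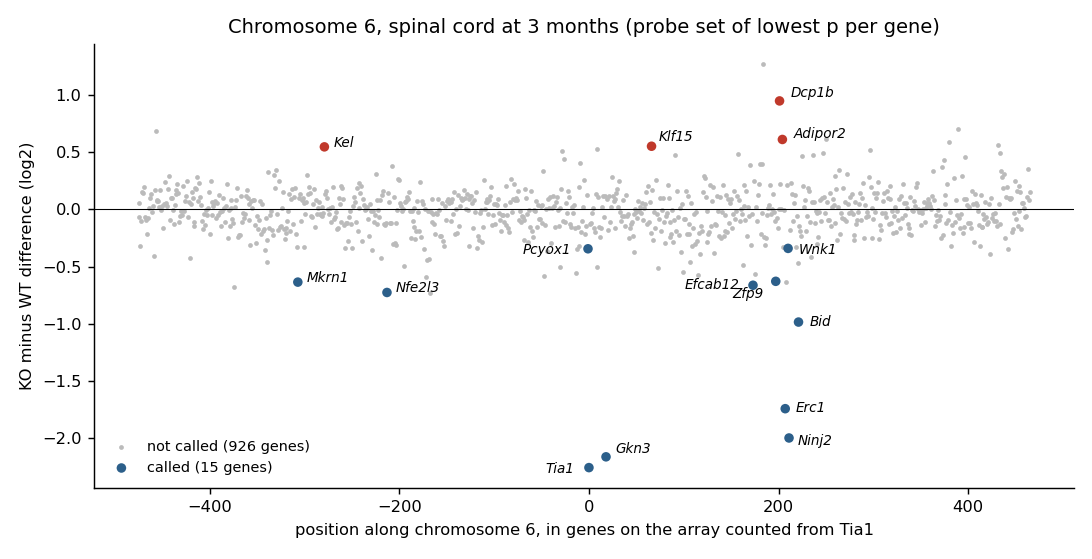
Each point is 1 of 941 genes of chromosome 6 on the array, with its rank counted in array genes from Tia1 on the x axis and the KO minus WT difference (log2) of its probe set of lowest p on the y axis. The 15 called genes are coloured, red when higher and blue when lower in KO. Of these, 8 sit between 173 and 221, a stretch set after the values were seen.

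Some genes differed between the genotypes at 3 months while the WT level itself differed between the ages. Nnt encodes the mitochondrial transhydrogenase, which is known to be partly deleted in the C57BL/6J substrain and intact in other C57BL/6 substrains. Its levels with probe set 1416105_PM_at were 8.21, 8.32 and 8.30 in WT and 7.029, 7.227 and 7.003 in KO, −2.28-fold (adjusted p = 1.577e-10). At 6 months both genotypes had a mean of 7.14 (WT) and 7.13 (KO), the level of KO at 3 months. Gabra2, the alpha subunit of GABA-A receptors whose expression is known to be lowered in C57BL/6J by an intronic deletion, had levels of 7.53, 7.48 and 7.49 in WT and 6.04, 6.05 and 5.95 in KO, −2.80-fold. At 6 months its means were 5.32 in WT and 5.49 in KO. In Nnt the other 9 cord arrays lay together below the WT arrays of 3 months, whereas in Gabra2 the KO arrays of 3 months stood between the WT arrays of 3 months and all arrays of 6 months.

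The reverse held for 2 genes of chromosome 14. Entpd4, a nucleotide hydrolase of the Golgi, had levels of 7.71, 7.53 and 7.43 in WT and 8.50, 8.49 and 8.46 in KO, 1.90-fold higher. Its means at 6 months were 8.46 in WT and 8.49 in KO. Slc25a37 (mitoferrin 1), the iron importer of mitochondria, had a WT mean of 8.76 and a KO mean of 9.70 with probe set 1438177_PM_x_at, beside 9.70 and 9.75 at 6 months. The KO effect differed between the ages in Nnt, Gabra2, Entpd4 and Slc25a37 (adjusted p = 4.671e-06, 0.01095, 0.0001505 and 3.944e-06). In cerebellum and midbrain at 3 months, the KO minus WT differences were −1.14 and −0.89 for Nnt and 0.79 and 0.83 for Entpd4. Wdfy1, an endosomal FYVE-domain protein, behaved in another way. Its WT levels at 3 months ran from 7.81 to 8.46 with a mean of 8.07, against 8.52 in KO, 6.72 in WT at 6 months and 8.45 in KO at 6 months. Its difference of 0.45 at 3 months was not called, and the effect at 6 months was larger by 1.28 (adjusted p = 0.01095). Ide, the insulin-degrading enzyme, had means of 8.26 in WT and 8.17 in KO at 3 months and stood apart only in WT at 6 months, with 8.82 against 8.19. The calls of Nnt, Gabra2, Entpd4 and Slc25a37 at 3 months were kept when any 1 array was left out. Genotype cannot be told apart here from the origin or substrain of the WT animals of an age, and their substrain was not tested.

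**Figure D5:**
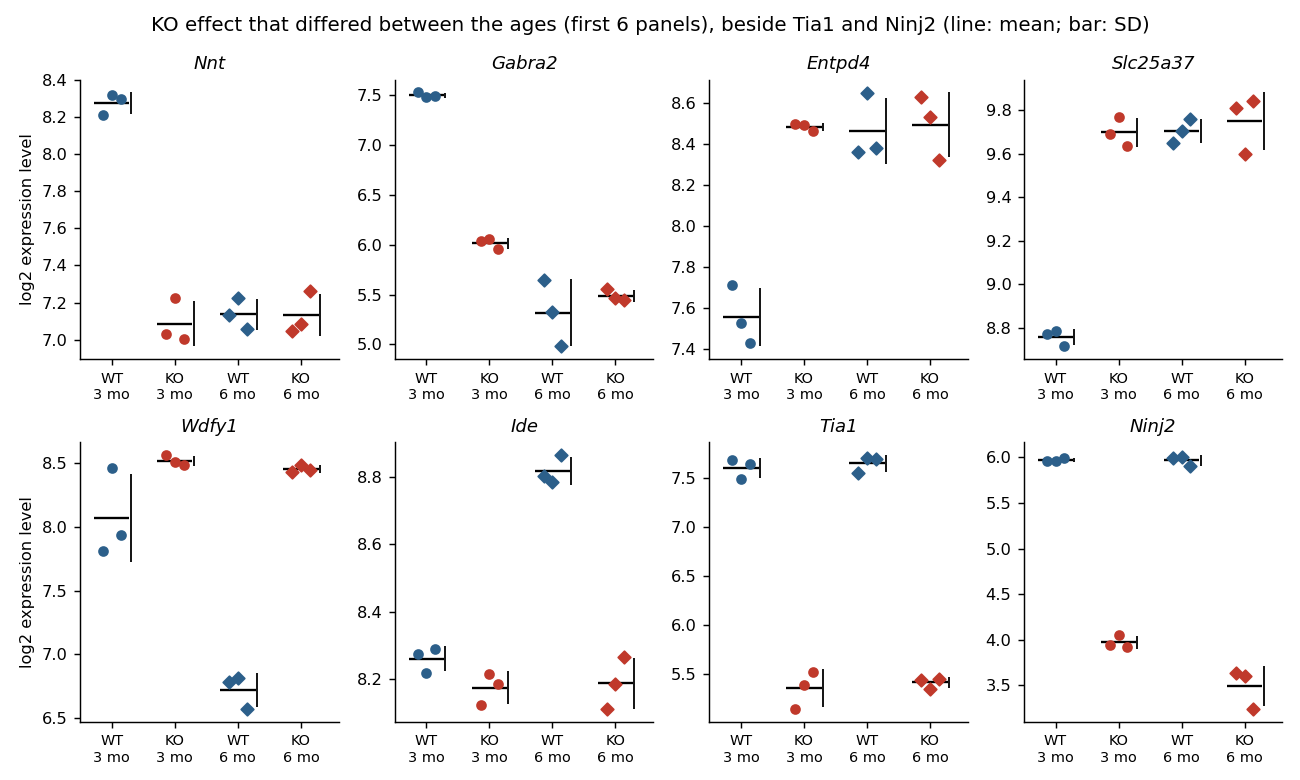
Levels (log2) of Nnt, Gabra2, Entpd4, Slc25a37, Wdfy1 and Ide, whose KO effect differed between the ages, and of Tia1 and Ninj2 are plotted in the 12 spinal cord arrays by genotype (WT blue, KO red) and age, with the mean as a line and the SD as a bar beside it. In the first 4 panels the WT arrays of 3 months stand apart from the other 9 arrays, while Tia1 and Ninj2 split by genotype at both ages.

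Among the other genes that fell, Dbp had the clearest separation. This clock-controlled transcription factor had levels of 7.13, 7.19 and 7.12 in KO and 7.95, 7.83 and 8.14 in WT, −1.77-fold (adjusted p = 7.894e-07). Of the 21 measured circadian genes, only Dbp passed the test. The other output and core genes had differences of −0.42 for Ciart, −0.30 for Per3 and 0.24 for Per1, with a median of −0.07 over the list, and the hour of death is not given in the sources used here. Dbp was kept without any 1 array. Malat1, a nuclear long noncoding RNA, fell by 0.53 on the log2 scale with levels of 8.68, 8.67 and 8.62 in KO and 9.06, 9.19 and 9.30 in WT. Opalin, a membrane protein of oligodendrocytes, had 8.48, 8.54 and 8.55 against 9.13, 8.99 and 9.13, −1.47-fold. It was the only one of 22 myelin genes that passed, and Mbp and Mog had differences of 0.12 and 0.28. Opalin was lost without any array other than WT 2 (adjusted p up to 0.1315). The immediate early gene Jun was −1.35-fold with probe set 1448694_PM_at, while its brightest probe set is another and did not pass the test. Egr2, a factor of myelinating Schwann cells, was 2.10-fold higher. Other immediate early genes were mostly lower, with Fos at −0.64, Ier2 at −0.52 and Egr1 at −0.35, none of which passed. Jun was lost without any 1 array (adjusted p up to 0.1773) and Egr2 without KO 122973 or WT 1 (up to 0.1252). Rab7b, a GTPase of late endosomes, was −1.68-fold, Enpp3 −1.63-fold, the muscle intermediate filament gene Sync −1.53-fold and the apelin receptor gene Aplnr −1.42-fold. Of these, Enpp3 was lost without KO 122972 (0.07329), Rab7b without KO 122972, KO 122973, WT 1 or WT 3 (up to 0.213), Sync without KO 122972, KO 122973, WT 2 or WT 3 (up to 0.3957) and Aplnr without any array other than WT 3 (up to 0.1551).

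Lists that bear on stress granules and on motor neuron disease held no called gene, with 1 exception. Of 30 P-body and mRNA decay genes, 0 passed by the brightest probe set, with a median of −0.03 and a range from −0.18 to 0.08. Dcp1b, the exception, was called through another probe set. Of 15 AU-rich element binding protein genes and 10 mRNAs reported as bound by TIA-1, 0 passed, with medians of −0.04 and 0.02. The 19 integrated stress response genes (median 0.05), the 16 heat shock genes (0.01) and the 17 measured motor neuron disease genes (0.09) had 0 called each. In the last list the differences ran from −0.13 for Atxn2 to 0.21 for Grn. Bid alone was called among 24 BCL2 family and apoptosis genes (median −0.02), and 0 of 20 p53 target genes passed (median 0.04). Among the neuron, astrocyte, oligodendrocyte, microglia and endothelium lists, Opalin was the only called marker. The 13 motor neuron genes had a median of −0.06, with Nefh at 0.02 and Prph at −0.15. The 14 astrocyte genes had a median of 0.07, and the endothelial genes 0.18 over 14 genes, of which 3 had an unadjusted p under 0.05. An effect that misses the threshold at 3 animals per group is not shown to be absent.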

How the data were processed

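Gene expression was measured with Affymetrix 3′ expression arrays. The authors deposited log2 expression values, which they had background corrected, quantile normalized and summarized by Robust Multichip Average (RMA in R 2.14.0, per the labels). No build enters these values. Of 45141 probe sets, 104 controls were left out, and of the 45037 tested 28898 carry 1 gene symbol, 551 several and 15588 none. The means of 16 groups were fitted over all 48 arrays, with limma (version 3.58.1, under R 4.3.3), which gave 32 residual and 4.97 prior degrees of freedom. The block correlation came from statmod 1.5.0. Adjusted p-values are Benjamini-Hochberg values over all probe sets. An exact permutation test of 3 against 3 animals cannot go below p = 0.1. The number of arrays limits the precision. Genes were named by a rule: the 15 per direction with the largest change among those called with no overlap of the groups, all probe sets of Tia1 and Tial1, up to 5 members of each described list by change and any called member, the 3 per direction with the largest called difference of effects, and other called genes by fold. Exceptions, named after their values were seen, are list members given as points of reference such as Nr3c1, Mt1, Mbp, Nefh, Egr1, Fcnb and Ide. The members, lists and tests were chosen with earlier results of these data known. List values use the brightest probe set of a gene. Symbols were updated through the platform annotation and RefSeq, whose gene order (GRCm38.p6) and promoter sequences were used. The fit was tested on simulated data. Alternatives were removal of dim probe sets, a separate fit of the 12 or 6 spinal cord arrays, repeated quantile normalization, a trended robust prior, mouse as a block, stricter thresholds, each array left out, and, chosen after seeing the data, 2 arrays left out together.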

Additional observations from a re-analysis of the deposited data

Results flagged for a closer look

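The KO effect in spinal cord at 3 months differed from that in another tissue or age for the genes below, each by a limma test of the difference over all probe sets. Values are the difference of the 2 log2 effects. Against cerebellum at 3 months, the effect was more positive in spinal cord for Erc1 (2.72), which was lowered in both, Chil4 (2.56) and Chil3 (2.33), and more negative for Slc7a3 (−2.53) and Chac1 (−1.56), which rose in cerebellum only by their own tests, and for Ninj2 (−0.93), lowered in both. Against midbrain at 3 months, the values were 2.56 for Chil4, 2.29 for Chil3 and 1.88 for Mmp8. Against spinal cord at 6 months, they were 2.06 for Chil4, 1.92 for Chil3 and 1.75 for Mmp8. They were −1.65 for Gabra2, −1.18 for Nnt and −1.28 for Wdfy1, which passed at 6 months (1.73) and not at 3 months (0.45). For Gabra2, Nnt and Wdfy1 the WT level differed between the ages, and the KO mean of Wdfy1 changed little. For Chil3, Chil4 and Mmp8 the values of neighbouring tissue differed between the arrays, and their part was not tested. For Erc1 and Ninj2 the KO levels in cord lay below the array medians, and the part of weak signal was not tested.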

How the results depend on the processing

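The counts of higher and lower probe sets (98 and 42) moved to 62 and 25 at an adjusted p under 0.01, and the higher count to 52 with the 6 arrays fitted alone and to 48 without WT 3 and KO 122973, a setting chosen after seeing the data. Leaving out 1 array gave 63 to 90 higher and 27 to 39 lower. The differences against cerebellum (20) and midbrain (7) moved to 11 and 1 without dim probe sets, and were 14 to 25 and 4 to 12 with 1 array left out. The difference between the ages (24) moved to 6 with the 12 spinal cord arrays fitted alone and with repeated quantile normalization over them, to 11 at an adjusted p under 0.01 and to 56 without the 2 arrays, and was 13 to 35 with 1 array left out. The cause was not tested. Mouse as a replicate block (consensus correlation 0.0303) gave 100 higher and 44 lower, with 20, 7 and 24 for the differences, and all 97 called probe sets with 1 symbol passed. KO and WT numbers pair no animals. On chromosome 6, 19 probe sets were called, and 21 with the spinal cord arrays fitted alone. Of the 97, 46 passed without any 1 array, 59 with the 12 arrays alone and 42 with the 6 alone. In any setting, 0 of them changed direction, but this was largely fixed in advance. A refit of the same values keeps the difference of the group means. Leaving out arrays cannot reverse it where the groups do not overlap.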
